A study of Homo sapiens with 12 samples.

Results

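The question was whether the effect of lowering ZRF1 on RNA levels in NT2/D1 cells differed between cells given retinoic acid for 3 h and untreated cells. All 12 Agilent 2-colour arrays of the study, of 12 in all, bear on it. Of these, 6 arrays came from cells at 3 h and 6 from cells at 0 h. The 3 h group was NTERA2 (NT2/D1) cells with a hairpin against ZRF1 (shZRF1) set against cells with a random hairpin (shRandom), both given 0.01 µM retinoic acid. The 0 h group was the same pair of cell populations with no retinoic acid. There were 3 biological replicates at 3 h and 3 at 0 h. Every replicate was hybridised on a forward array (knockdown in Cy5) and on a swapped array (knockdown in Cy3). The quantity described is the knockdown effect, log2 of knockdown over control RNA, averaged over the forward and the sign-turned swapped array. A positive effect means more RNA in the knockdown. The difference is the effect at 3 h minus the effect at 0 h.

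NT2/D1, also called NTERA2, was derived from a human testicular germ cell tumour and can be driven by retinoic acid towards neurons and other fates. ZRF1, with the gene symbol DNAJC2, is a J-domain protein that assists nascent chains at the ribosome and has also been described at chromatin, where it binds ubiquitinated histone H2A laid down by the Polycomb complex PRC1 and displaces that complex when cells begin to differentiate. Retinoic acid enters the nucleus and binds receptors of the RAR family, which sit with RXR partners on response elements and switch on a first set of targets that includes RARB, the CYP26 enzymes that degrade retinoic acid, and 3' genes of the HOX clusters. Immediate early genes such as EGR1 and FOS need no new protein and answer growth factor signals through ERK and the serum response factor, and DUSP and SPRY genes feed back on that pathway.

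The knockdown cells were treated as 1 line, since every title gives a single hairpin name although the cell line field numbers it differently between samples. A single hairpin against a single random hairpin does not separate loss of ZRF1 from other effects of that hairpin. Each array set knockdown against control RNA of the same time, so neither the response to retinoic acid itself nor the level of any gene was measured, and marker genes could not be used to check the cell type. In a ratio of bulk RNA, fewer cells of a kind and less RNA per cell cannot be told apart. Replicates came from separate days, which the replicate numbers do not identify. Whether the arrays of the 2 times were hybridised or scanned together is not given either, and the part of such a batch in any difference below was not tested.

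The arrays had medians at or near 0 and nearly equal interquartile ranges, but their tails differed. Between its 1st and 99th percentiles, the log2 ratio spanned 3.04 on 3 h replicate 1 forward, 1.10 on 3 h replicate 3 swapped and 1.70 on 0 h replicate 2 swapped. On the other 9 arrays the span lay between 0.745 and 0.990. These 3 are called the wide arrays, by a rule of over 1.2 times the span of the median array. All 32 ratios above 50-fold stood on them, 17, 5 and 10 in that order. The results are therefore given with all 12 arrays and again without these 3, from a model of the 9 remaining single arrays (4 at 3 h and 5 at 0 h) with a dye coefficient. The replicate was a random block in that model, because its 2 arrays hold the same RNA. The correlation estimated between arrays of a replicate was only 0.056. SEs and p-values without the wide arrays thus count arrays almost as separate replicates.

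No feature passed the test of the difference with all arrays. Of 30305 features, 18646 of them genes with a symbol and the rest probes without one, 0 were higher and 0 were lower at 3 h past an adjusted p of 0.05 (0% each; limma, smallest adjusted p = 0.717). At an unadjusted p under 0.05, 912 features (3.01%) had a higher and 827 (2.73%) a lower effect at 3 h, 5.74% together. The 3 replicates of 3 h all lay above the 3 of 0 h for 2424 features (8%) and all below them for 1553 (5.12%), 13.1% together.

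The intervals of the differences were narrow for most features. For 29341 of the 30305 features (96.8%) the whole 95% interval of the difference lay within 1.5-fold in either direction, which is 0.585 on the log2 scale. The median half-width of the interval was 0.11. A difference beyond 1.5-fold was measured for 66 features with all arrays and for 13 without the wide arrays. Of the 22 features beyond 2-fold with all arrays, the value farthest from the rest came from the forward array of 3 h replicate 1 for 11, from the swapped array of 3 h replicate 3 for 3, from the forward array of 3 h replicate 3 for 1 and from the swapped array of 0 h replicate 2 for 7. Only 1 of these 22 was also beyond 2-fold without the wide arrays.

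**Figure D1:**
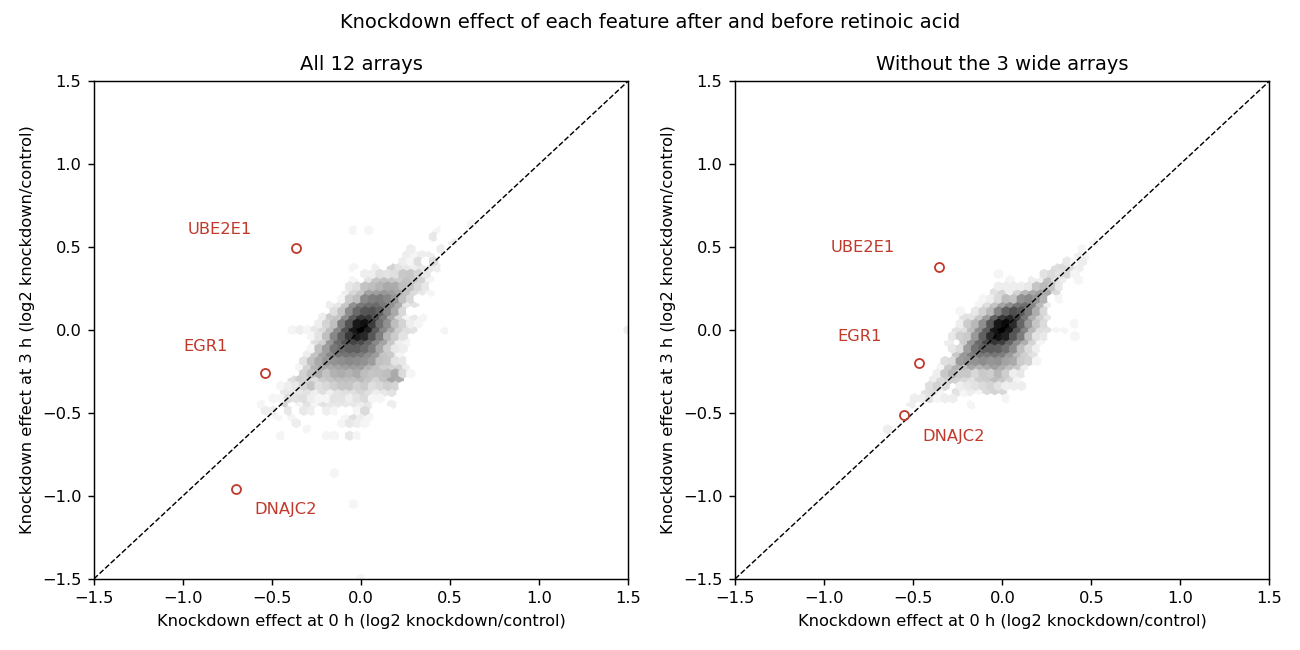
Density of 30305 features by their knockdown effect at 3 h (vertical axis, log2 knockdown/control) and at 0 h (horizontal axis, same unit), with all 12 arrays (left) and without the 3 wide arrays (right). Darker hexagons hold more features, on a log scale, and the dashed line marks equal effects. Values beyond the axes were set to the border. The cloud lies along the line, UBE2E1 and EGR1 lie above it in both panels, and DNAJC2 lies below it on the left and next to it on the right.

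Without the wide arrays, 1 feature had a higher effect at 3 h past an adjusted p of 0.05 (0.0033%) and 0 had a lower one (0%). It was the probe A_32_P195924, which has no gene symbol in the annotation used. Its replicate values were -0.11, -0.06 and -0.01 at 3 h and -0.41, -0.63 and -0.48 at 0 h, so the knockdown was below the control in all 6 and the groups did not overlap. The difference was 0.45 ± 0.06 (moderated SE, n = 3 replicates each; limma adjusted p = 0.717) with all arrays and 0.39 ± 0.04 without the wide arrays (adjusted p = 0.0281). That last fit took 9 single arrays as its units. Over all settings tried the adjusted p of this probe ranged from 0.0233 to 0.891. On replicate averages with each wide array replaced by its partner, 0 features passed (limma, smallest adjusted p = 0.0781). At an unadjusted p under 0.05 the fit without wide arrays held 823 higher (2.72%) and 1406 lower features (4.64%), 7.36% together. Of the 1739 features at that level with all arrays, 981 (56.4%) were at it in both fits, all 981 with the same sign, which is 44.0% of the 2229 in the fit without wide arrays. Every array of the smaller fit is also in the larger, so a shared sign was largely fixed in advance.

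DNAJC2, the target of the hairpin, was lower in the knockdown in all 6 replicates. Its effect was -1.62, -0.44 and -0.82 at 3 h and -0.58, -1.01 and -0.52 at 0 h, so the groups overlapped. The RNA stood at 0.514 of control at 3 h and at 0.616 of control at 0 h. The difference was -0.26 ± 0.30 with all arrays (95% interval -0.98 to 0.46; adjusted p = 0.792) and 0.04 ± 0.05 without the wide arrays. The lowest single value of each time came from a wide array, -2.73 at 3 h and -1.41 at 0 h. On the arrays that were not wide, the effect averaged -0.51 at 3 h and -0.55 at 0 h. Without the wide arrays the 95% interval of the difference was -0.07 to 0.14.

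UBE2E1, a ubiquitin-conjugating (E2) enzyme, had the smallest p among genes with a symbol. Its effect was 0.64, 0.63 and 0.20 at 3 h and -0.43, -0.28 and -0.40 at 0 h. The knockdown was above the control in all 3 replicates at 3 h and below it in all 3 at 0 h, at 1.41 of the control level at 3 h and 0.775 at 0 h. The difference was 0.86 ± 0.12 (95% interval 0.57 to 1.15; unadjusted p = 0.000287, adjusted p = 0.717) and 0.74 ± 0.13 without the wide arrays. Within 3 h replicate 1 the wide forward array read 1.25 and its swapped partner 0.04, whereas the arrays of 3 h replicate 2 read 0.62 and 0.64. Of the 12 measured genes of the UBE2D and UBE2E families and related E2 enzymes, 1 was at an unadjusted p under 0.05, UBE2E1 itself (8.33%, against 3.01% of all features in that direction), and the list median was 0.053 with all arrays and 0.015 without the wide arrays, against 0.006 and 0.002 over all features.

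The other genes with the smallest p and a higher effect at 3 h had small differences. KEL, the Kell blood group endopeptidase, had 0.20, 0.26 and 0.20 at 3 h and -0.06, -0.03 and 0.02 at 0 h, a difference of 0.24 ± 0.04. CCNC, which encodes cyclin C of the Mediator kinase module, had 0.20, 0.15 and 0.12 at 3 h and -0.02, -0.05 and -0.03 at 0 h, a difference of 0.19 ± 0.03. PLK2, a polo-like kinase, had 0.20, 0.16 and 0.23 at 3 h and 0.03 in each replicate at 0 h, a difference of 0.17 ± 0.03. Without the wide arrays the differences were 0.24 for KEL, 0.13 for CCNC and 0.10 for PLK2. All 3 genes were close to 0 at 0 h and above 0 in each replicate at 3 h.

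A further group had a lower level in the knockdown at 0 h and a ratio near 0 at 3 h. THBD, the thrombin receptor thrombomodulin, had -0.02, 0.05 and 0.10 at 3 h and -0.18 in each replicate at 0 h. ZNF143-AS1, an antisense transcript, had -0.05, -0.02 and 0.03 at 3 h and -0.30, -0.44 and -0.29 at 0 h. LOC100289230, an uncharacterised locus, had -0.01, 0.00 and -0.05 at 3 h and -0.22, -0.17 and -0.28 at 0 h. In these 3 genes the 0 h replicates all lay below the 3 h replicates, and the differences without the wide arrays were 0.21, 0.25 and 0.24. GCOM1 and LOC100506271 had differences of 0.18 each, and EGR3 of 0.26 is described with its family below.

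The genes with the smallest p and a lower effect at 3 h had differences between -0.26 and -0.14. SLC5A3, the sodium and myo-inositol cotransporter, had -0.20, -0.26 and -0.23 at 3 h and 0.00, -0.05 and -0.08 at 0 h, with a difference of -0.19 ± 0.04 and of -0.18 ± 0.04 without the wide arrays. ZFPM1, the GATA1 cofactor FOG1, had -0.16, -0.16 and -0.17 at 3 h and -0.01, 0.01 and 0.01 at 0 h. RFX7, a winged-helix transcription factor, had -0.35, -0.29 and -0.20 at 3 h and 0.02, 0.03 and -0.11 at 0 h. The groups overlapped for none of these 3 genes, and the differences of ZFPM1 and RFX7 were -0.17 and -0.26 with all arrays and -0.10 and -0.17 without the wide arrays. PLAG1, a zinc finger factor, ACIN1, a protein associated with the exon junction complex, MYCBP2, an E3 ubiquitin ligase, AAK1, a kinase of clathrin coats, ZNF205, a zinc finger protein, and the pseudogenes SIMC1P1 and NPEPPSP1 made up the rest, and 0 of these 10 passed adjustment (adjusted p = 0.717).

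Ranking the fit without wide arrays brought in other genes on the lower side. ZDHHC11, a palmitoyltransferase, had -1.01, -0.36 and -0.24 at 3 h and -0.02, 0.01 and -0.13 at 0 h, and a difference of -0.49 ± 0.19 with all arrays and -0.25 ± 0.05 without the wide ones. MED26, a Mediator subunit, had a difference of -0.15 without the wide arrays, but of its 3 probes 1 had a difference of -0.50 and the others -0.05 and -0.01 with all arrays. PCMTD2 had a difference of -0.25 without the wide arrays, and 1 of its 3 probes had the opposite sign with all arrays (0.09, against -0.33 and -0.28). CPNE7, a copine, and the host transcript MIR4697HG had differences of -0.16 each without the wide arrays.

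**Figure D2:**
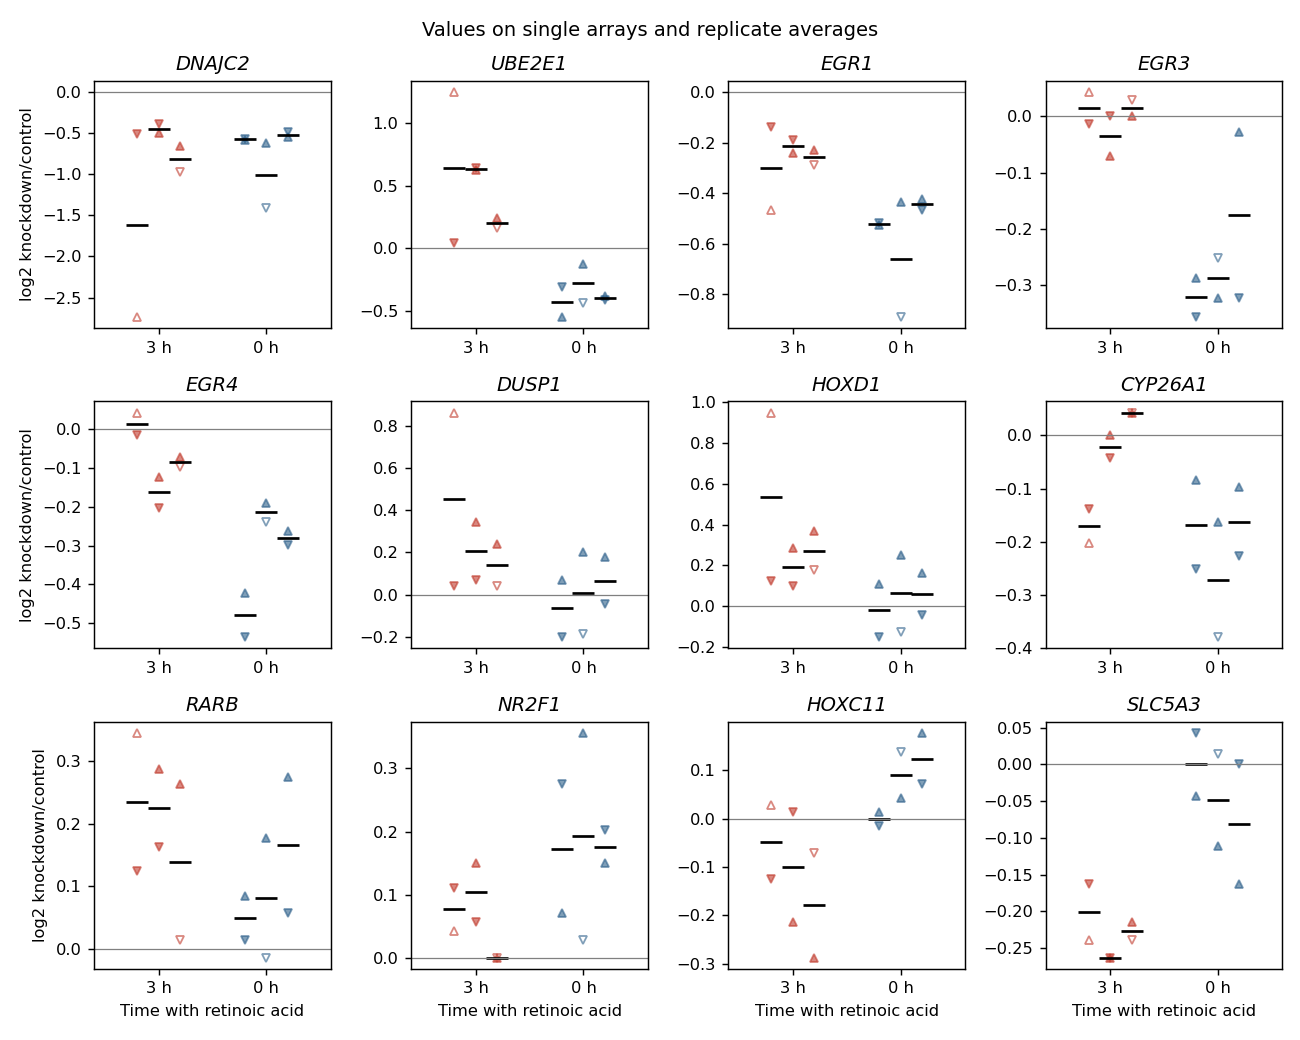
Log2 knockdown/control (vertical axis) of 12 genes at 3 h (red, left) and 0 h (blue, right); triangles are single arrays (upward forward, downward dye-swapped, hollow on wide arrays) and black bars are the 3 replicate averages of each time. UBE2E1 lies above 0 at 3 h and below 0 at 0 h, EGR1, EGR3 and EGR4 lie lower at 0 h than at 3 h, and DNAJC2 overlaps between the times.

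Immediate early genes and the feedback genes of ERK signalling held 7 of 41 measured members (17.1%) with a higher and 0 with a lower effect at 3 h at an unadjusted p under 0.05, against 3.01% and 2.73% of all features. None of the 41 passed adjustment. Without the wide arrays the counts were again 7 and 0, against 2.72% and 4.64% of all features. A difference above 0 was measured for 32 members (78.0%), against 16382 of all 30305 features (54.1%). That share was not particular to this list. It was 79.2% for blood and immune markers and 79.3% for TGF-beta, NODAL and BMP genes. Without the wide arrays it was 75.6% for the immediate early list, 58.3% for the blood list and 79.3% for the TGF-beta list, against 51.7% of all features. The replicates did not overlap for 12 members in the higher direction (29.3%) and for 1, SPRY1, in the lower, against 8% and 5.12% of all features. The list median was 0.047 with all arrays and 0.050 without the wide arrays. Apart from EGR1 and EGR3, the members named below were chosen after their values were seen.

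The EGR factors, zinc finger proteins made soon after growth factor or serum signals, were among the members with the largest differences. EGR1 had -0.30, -0.21 and -0.26 at 3 h and -0.52, -0.66 and -0.44 at 0 h, so the knockdown held less EGR1 RNA than the control at both times, 0.837 of control at 3 h and 0.687 at 0 h. Its difference was 0.28 ± 0.06 (unadjusted p = 0.00258) and 0.27 ± 0.04 without the wide arrays. EGR3 had 0.01, -0.04 and 0.01 at 3 h and -0.32, -0.29 and -0.18 at 0 h, a difference of 0.26 ± 0.05. EGR4 had 0.01, -0.16 and -0.08 at 3 h and -0.48, -0.21 and -0.28 at 0 h, a difference of 0.25 ± 0.08, and both had 0.25 without the wide arrays. For all 3 genes every 3 h replicate lay above every 0 h replicate.

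Other members had ratios near or above 0. DUSP1, a phosphatase that inactivates MAP kinases, had 0.45, 0.21 and 0.14 at 3 h and -0.07, 0.01 and 0.07 at 0 h, with a difference of 0.26 ± 0.08 that was 0.16 without the wide arrays. CCN1, a secreted matrix protein, had 0.22, 0.12 and 0.18 at 3 h and -0.00, 0.06 and 0.01 at 0 h, with a difference of 0.15 ± 0.04 that was 0.08 without the wide arrays. PHLDA1, a protein with a pleckstrin homology-like domain, and KLF4, a Krüppel-like factor, each had a difference of 0.11, and their replicates did not overlap between the times. FOS, the partner of JUN in AP-1, had 0.50, 0.21 and 0.18 at 3 h and 0.12, 0.10 and 0.11 at 0 h, and a difference of 0.19 ± 0.08 that was 0.05 without the wide arrays.

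Not all members followed. JUN had a difference of 0.00 ± 0.08, NR4A1 of -0.01 ± 0.05 and DUSP6, the ERK phosphatase, of -0.05 ± 0.04. IER2 had -0.59, -0.08 and 0.11 at 3 h and -0.05, 0.26 and 0.10 at 0 h, and its difference was -0.29 ± 0.18 with all arrays and -0.06 without the wide arrays. SPRY1, which inhibits receptor tyrosine kinase signalling, had a difference of -0.09 ± 0.04.

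On single arrays the median of these 41 genes separated the times completely, although by little. It lay between 0.014 and 0.043 on the 6 arrays of 3 h and between -0.043 and -0.014 on the 6 arrays of 0 h, wide arrays included. The medians of the replicate averages did not separate, with 0.007, 0.016 and 0.035 at 3 h and -0.015, 0.006 and 0.014 at 0 h. The median difference of the list stayed between 0.045 and 0.069 over all settings tried. Of the 24 lists examined, this list and that of early retinoic acid targets were the ones whose medians did not overlap over all 12 arrays. For the early targets the gap was smaller than the step of about 0.014 between neighbouring probe values near 0.

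Because EGR1 and DUSP1 stand among the members with the largest differences, the sequence upstream of their starts is shown, from 250 bases before to 50 bases after the start, as RefSeq gives it on GRCh38.p14. The capitals mark 2 CArG boxes, the binding motif of the serum response factor, in the EGR1 window at chr5:138465229-138465528 (plus strand), which begin at -105 and -83 from the start. In the DUSP1 window at chr5:172771146-172771445 (minus strand), the capitals mark TGACGTCA, the motif of CREB and ATF factors, at -125.
EGR1: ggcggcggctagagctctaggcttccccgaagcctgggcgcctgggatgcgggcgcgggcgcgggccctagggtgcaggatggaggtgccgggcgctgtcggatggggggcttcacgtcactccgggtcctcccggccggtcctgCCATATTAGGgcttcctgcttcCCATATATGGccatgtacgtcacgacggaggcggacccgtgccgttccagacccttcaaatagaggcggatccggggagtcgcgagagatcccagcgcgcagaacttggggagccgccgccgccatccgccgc
DUSP1: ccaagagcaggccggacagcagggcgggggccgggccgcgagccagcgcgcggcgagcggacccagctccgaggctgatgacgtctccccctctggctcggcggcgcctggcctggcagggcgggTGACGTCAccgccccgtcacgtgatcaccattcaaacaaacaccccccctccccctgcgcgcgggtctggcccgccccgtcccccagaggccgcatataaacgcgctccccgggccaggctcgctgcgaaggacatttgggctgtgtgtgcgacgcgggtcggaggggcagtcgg
Both motifs were searched on both strands, and they cannot overlap each other. The CArG box was found in 454 of 35116 windows of this length (1.29%), and in 2 of the 35 windows that matched list members, EGR1 and SRF. TGACGTCA was found in 649 windows (1.85%) and in 2 of the 35, DUSP1 and JUND. A match is a description of the letters and not a site of binding.

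Early targets of retinoic acid had 29 measured members, of which 22 (75.9%) had a difference above 0, against 54.1% of all features. TGIF1, BHLHE40 and CDX1 were higher and NR2F1 and ZNF503 lower at an unadjusted p under 0.05 (10.3% and 6.9%, against 3.01% and 2.73% of all features), and none passed adjustment. Without the wide arrays 5 were higher and 2 lower (17.2% and 6.9%, against 2.72% and 4.64%). The replicates did not overlap for 7 members in the higher direction (24.1%) and for 4 in the lower (13.8%), against 8% and 5.12% of all features. The list median was 0.039 with all arrays and 0.032 without the wide arrays. On single arrays the list median lay between 0.020 and 0.042 at 3 h and between -0.029 and 0.014 at 0 h. Log2 ratios of single probes near 0 move in steps of about 0.014, and the gap between the times was smaller than 1 step.

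Genes of the receptor and of retinoic acid breakdown had differences of at most 0.15. RARB, the receptor gene that retinoic acid switches on through its own promoter, had 0.23, 0.23 and 0.14 at 3 h and 0.05, 0.08 and 0.17 at 0 h, a difference of 0.10 ± 0.05 and of 0.10 ± 0.04 without the wide arrays. CYP26A1, the main enzyme of retinoic acid breakdown, had -0.17, -0.02 and 0.04 at 3 h and -0.17, -0.27 and -0.16 at 0 h. Its difference was 0.15 ± 0.06 and 0.14 ± 0.03 without the wide arrays, and the groups overlapped in 3 h replicate 1. CYP26B1, its relative, had a difference of 0.11 ± 0.05, with 0.14, 0.05 and 0.04 at 3 h and -0.02, -0.10 and 0.02 at 0 h. Its 2 probes had opposite signs, 0.29 and -0.06. The difference of the gene was 0.24 on forward arrays and -0.01 on swapped arrays.

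Transcription factors of the list went both ways. NR2F1, an orphan nuclear receptor also called COUP-TFI, had 0.08, 0.10 and 0.00 at 3 h and 0.17, 0.19 and 0.18 at 0 h, a difference of -0.12 ± 0.04 (-0.14 without the wide arrays). BHLHE40, a circadian repressor, had 0.09, 0.06 and 0.05 at 3 h and -0.09, -0.09 and 0.03 at 0 h, a difference of 0.12 ± 0.04 and of 0.10 without the wide arrays. TGIF1, a homeodomain repressor, had a difference of 0.11 ± 0.04 with all arrays and of 0.02 without the wide arrays. CDX1, a caudal homeobox factor, had 0.08 ± 0.03, ZNF503 had -0.08 ± 0.03, and MEIS1 and MEIS2, homeodomain partners of HOX proteins, had 0.11 ± 0.07 and -0.06 ± 0.03.

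The remaining members had wide or small differences. SKAP2 had 0.64, 0.07 and -0.01 at 3 h and 0.07, -0.18 and -0.11 at 0 h, a difference of 0.31 ± 0.17. RARRES2, which encodes the adipokine chemerin, had -0.40, 0.04 and 0.21 at 3 h and 0.06, 0.21 and 0.11 at 0 h, a difference of -0.17 ± 0.15 and of 0.00 to 2 decimals without the wide arrays. LEFTY1, an inhibitor of NODAL, had 0.10 ± 0.05, NRIP1, a corepressor of nuclear receptors, 0.08 ± 0.07, STRA6, the membrane receptor of the retinol binding protein, -0.08 ± 0.04, DHRS3, a retinal reductase, -0.06 ± 0.07, and CRABP2, which carries retinoic acid to the nucleus, -0.07 ± 0.12. TSHZ1, RET, TGM2, RARRES1, PLAAT4, STRA8, GDF10 and PDGFRA lay between 0.00 and 0.05.

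Receptors and enzymes of retinoid metabolism outside that list had 25 measured members, 13 of them with a difference above 0. None was higher or lower at an unadjusted p under 0.05, and the list median was 0.015 with all arrays and 0.021 without the wide arrays. RARA, the receptor gene with the smallest p of the list, had 0.31, 0.08 and 0.12 at 3 h and 0.00, -0.01 and 0.11 at 0 h, and its difference of 0.14 ± 0.07 was 0.03 without the wide arrays. The difference of RARG was -0.01 ± 0.04 (95% interval -0.11 to 0.10) and that of RXRA 0.01 ± 0.05 (-0.09 to 0.12). FABP5, which also binds retinoic acid, had 0.11 ± 0.06.

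HOX genes, the body-axis regulators that retinoic acid opens from the 3' end of each cluster, had 29 measured members. HOXD1, HOXD3 and HOXB13 were higher (10.3% of the list) and HOXC11 lower (3.45%) at an unadjusted p under 0.05, against 3.01% and 2.73% of all features. In the fit without wide arrays the same 3 were higher, and HOXC11, HOXD10 and HOXD12 were lower (10.3% each, against 2.72% and 4.64%). The list median was 0.017 with all arrays and 0.013 without the wide arrays. HOXD1, at the 3' end of its cluster, had 0.54, 0.19 and 0.27 at 3 h and -0.02, 0.06 and 0.06 at 0 h, a difference of 0.30 ± 0.09 that was 0.18 ± 0.04 without the wide arrays. Its neighbour HOXD3 had 0.21, 0.17 and 0.21 at 3 h and 0.05, 0.08 and 0.14 at 0 h, a difference of 0.10 ± 0.04.

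Members elsewhere in the clusters gave no common direction. HOXB1, HOXB2 and HOXA2 had differences of 0.04 ± 0.04, 0.08 ± 0.05 and 0.02 ± 0.03, and HOXB4 of 0.05 ± 0.03. HOXC11 had -0.05, -0.10 and -0.18 at 3 h and 0.00, 0.09 and 0.12 at 0 h, a difference of -0.18 ± 0.05. HOXB13, at the 5' end, had 0.05, 0.10 and 0.04 at 3 h and -0.04, -0.05 and -0.06 at 0 h. HOXD11, whose ratio was among the highest of the list, had 0.42, 0.43 and 0.46 at 3 h and 0.30, 0.49 and 0.39 at 0 h, a difference with a 95% interval of -0.08 to 0.17. HOXC9 and HOXD10 had ratios of 0.36 and 0.27 at 3 h and 0.43 and 0.37 at 0 h.

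**Figure D3:**
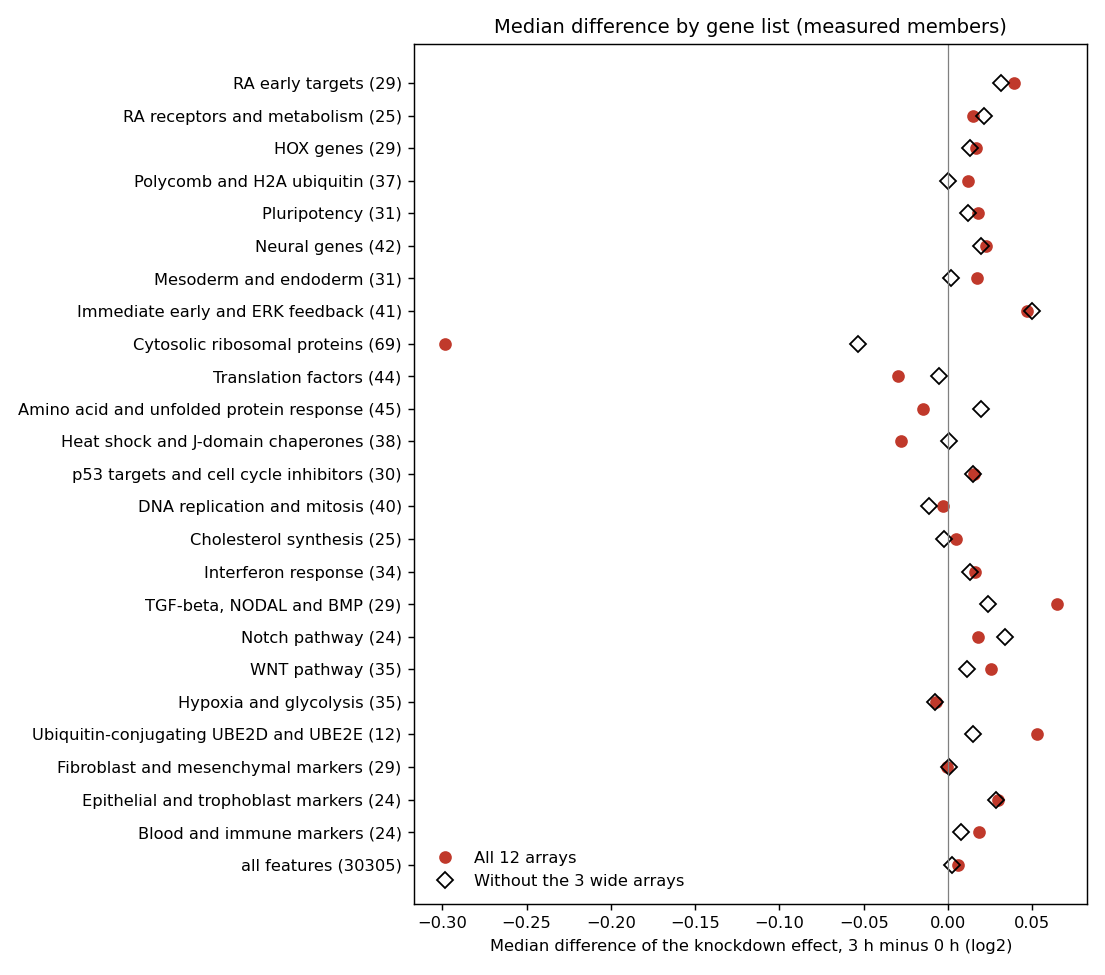
Median difference of the knockdown effect (horizontal axis, log2, 3 h minus 0 h) of 24 gene lists and of all features, with the number of measured members in brackets; red circles use all 12 arrays and open diamonds leave out the 3 wide arrays. Immediate early genes stay near 0.05 in both, and the cytosolic ribosomal proteins lie at -0.298 with all arrays and at -0.054 without the wide arrays.

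Polycomb subunits and enzymes that place or remove ubiquitin on H2A had 37 measured members, 1 higher and 2 lower at an unadjusted p under 0.05 (2.7% and 5.41%), against 3.01% and 2.73% of all features. The list median was 0.012 with all arrays and -0.000 without the wide arrays. EZH2, the methyltransferase of PRC2, had 0.18, 0.14 and 0.26 at 3 h and 0.09, 0.05 and 0.11 at 0 h, a difference of 0.11 ± 0.04 that was 0.03 without the wide arrays. ASXL2, of the BAP1 deubiquitinase complex, had -0.33, -0.23 and -0.07 at 3 h and 0.08, -0.08 and -0.02 at 0 h, a difference of -0.20 ± 0.07 and of -0.17 without the wide arrays. PHC2, a PRC1 subunit, had -0.14 ± 0.06. JARID2, a cofactor of PRC2, had 0.81, 0.20 and -0.13 at 3 h and -0.24, -0.29 and -0.01 at 0 h, a difference of 0.47 ± 0.23 and of 0.24 without the wide arrays. BMI1, RING1 and SUZ12, core subunits, had 0.04 ± 0.03, -0.00 ± 0.05 and -0.04 ± 0.03.

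Ribosomal proteins of the cytosol had the lowest list median, and it moved with the arrays. Of 69 measured members, 63 had a difference below 0, and the median was -0.298 with all arrays and -0.054 without the wide arrays. With all arrays 3 were lower (4.35%) at an unadjusted p under 0.05, against 2.73% of all features, and without the wide arrays 0 were, against 4.64%. The medians of the replicate averages were -0.51, -0.06 and 0.04 at 3 h and 0.02, 0.32 and 0.10 at 0 h, so the groups overlapped. These probes also differed by dye. On forward arrays the list median was -1.29, -0.29 and -0.26 at 3 h and -0.38, -0.21 and -0.35 at 0 h. On swapped arrays, after the sign was turned, it was 0.39, 0.19 and 0.38 at 3 h and 0.38, 0.81 and 0.51 at 0 h. The sign followed the dye on all 12 arrays, and the most extreme values stood on wide arrays. RPL9 and RPS26, the members with the smallest p, had -0.13 ± 0.04 and -0.10 ± 0.04 with all arrays. Without the wide arrays they had -0.04 and -0.03. In each, 1 probe carried the value with all arrays. It was -0.48 for RPL9, against 0.05 and 0.06 for the other probes. For RPS26 it was -0.55, against 0.03, 0.08 and 0.03. Translation factors had a list median of -0.030 with all arrays and -0.005 without the wide arrays.

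**Figure D4:**
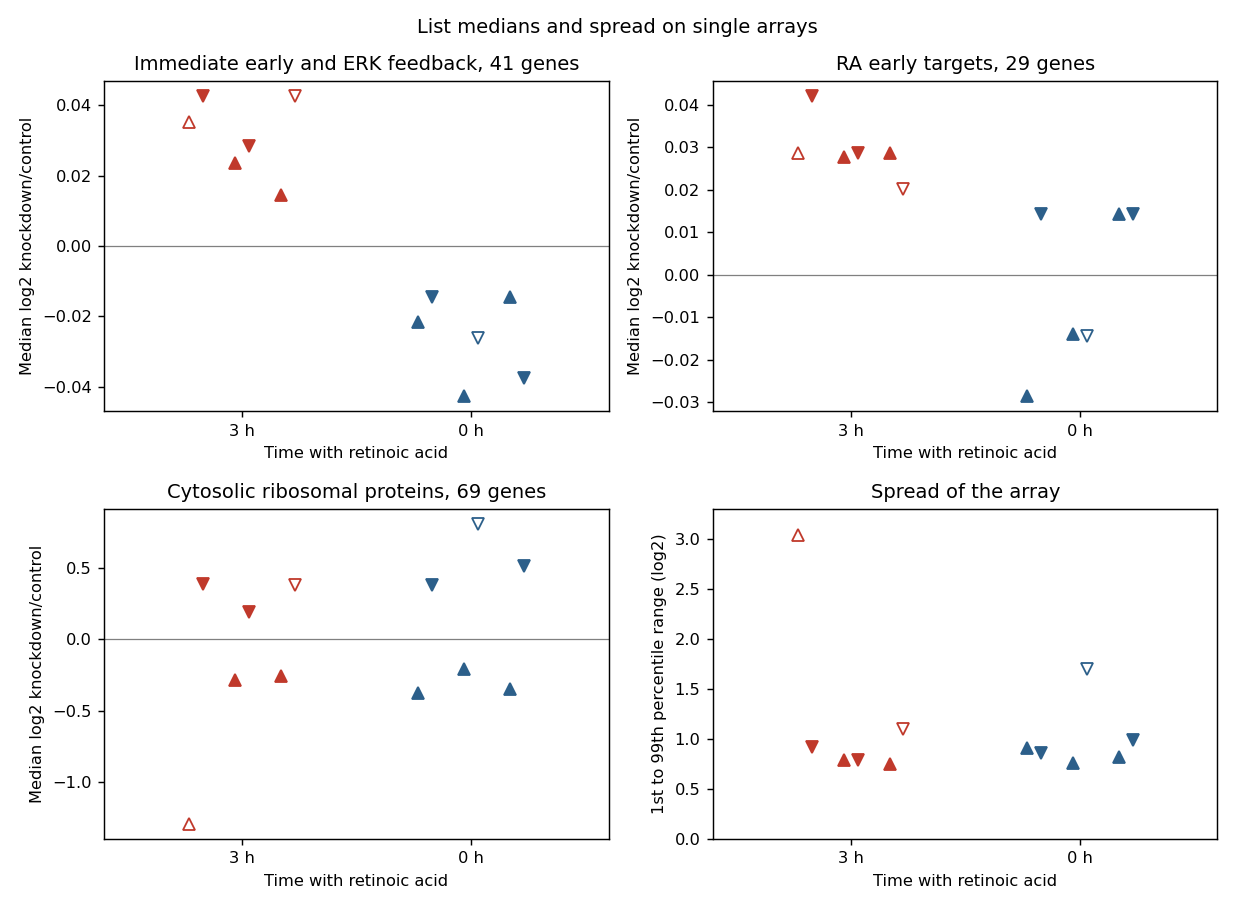
Median log2 knockdown/control (vertical axis) of 3 gene lists on each array at 3 h (red, left) and 0 h (blue, right), and the span between the 1st and 99th percentiles of each array (lower right); triangles point up for forward and down for dye-swapped arrays and are hollow on wide arrays. The upper panels separate by time, the right one by less than the step between neighbouring probe values near 0, and the ribosomal protein panel separates by dye.

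Genes of signalling pathways that act in early development showed small shifts. The list of TGF-beta, NODAL and BMP genes had a median of 0.065 with all arrays and 0.024 without the wide arrays, and 23 of 29 measured members had a difference above 0. At an unadjusted p under 0.05, 3 of the 29 were higher (10.3%) and 0 lower, against 3.01% and 2.73% of all features, and without the wide arrays 2 were higher (6.9%) and 0 lower, against 2.72% and 4.64%. NOG, an antagonist of BMP, had 0.28, 0.15 and 0.18 at 3 h and -0.06, 0.01 and 0.08 at 0 h, a difference of 0.19 ± 0.05 and of 0.13 without the wide arrays. ID4, an inhibitor of basic helix-loop-helix factors, had 0.61, 0.22 and 0.18 at 3 h and -0.04, 0.00 and 0.06 at 0 h, a difference of 0.33 ± 0.11 and of 0.15 without the wide arrays. WNT genes had a median of 0.026 (0.011 without the wide arrays), with SHISA2 at 0.10 ± 0.03 and MYC at 0.09 ± 0.04. Notch genes had 0.018 (0.034), with HEYL at 0.09 ± 0.05 and HES1 at 0.08 ± 0.04.

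Genes of the undifferentiated state had mostly small differences. Of 31 measured pluripotency genes, 1 was higher (3.23%) and 0 lower at an unadjusted p under 0.05, against 3.01% and 2.73% of all features, and the list median was 0.018 with all arrays and 0.012 without the wide arrays. NANOG and SOX2 had differences of -0.05 ± 0.04 (95% interval -0.14 to 0.03) and -0.01 ± 0.04 (-0.11 to 0.08). POU5F1 had -0.62, -0.09 and 0.11 at 3 h and -0.01, 0.41 and 0.09 at 0 h, a difference of -0.37 ± 0.20 that was -0.06 without the wide arrays. LEFTY2 had 0.22 ± 0.10.

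Neural genes had a median of 0.022 with 0 higher and 3 lower (7.14%) of 42 at an unadjusted p under 0.05, against 3.01% and 2.73% of all features. The fit without wide arrays had 1 higher (2.38%) and 0 lower, against 2.72% and 4.64%. EN2, a homeobox gene of the midbrain, had a difference of -0.30 ± 0.09 with all arrays and -0.03 without the wide arrays, and SOX1, a neural progenitor factor, -0.12 ± 0.03 and -0.05. Mesoderm and endoderm genes had a median of 0.017, with HAND1 at -0.12 ± 0.05 and HHEX at 0.08 ± 0.03. HAND1, a factor of heart and trophoblast, was higher in the knockdown in each replicate, with 0.22, 0.34 and 0.23 at 3 h and 0.34, 0.42 and 0.41 at 0 h.

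The medians of lists of stress, growth and metabolism lay close to the median of all features. The median was -0.015 for the amino acid and unfolded protein response (0.019 without the wide arrays), -0.028 for heat shock and J-domain chaperones (0.001), 0.015 for p53 targets and cell cycle inhibitors (0.015) and -0.003 for DNA replication and mitosis (-0.011). It was 0.004 for cholesterol synthesis (-0.003), 0.016 for the interferon response (0.013) and -0.007 for hypoxia and glycolysis (-0.008). Their members with the smallest p included ATF4, the factor of the integrated stress response, at -0.29 ± 0.14 (-0.05 without the wide arrays), DNAJB9, an ER chaperone, at 0.22 ± 0.10 (0.08), HSPE1, a mitochondrial chaperone, at -0.46 ± 0.22 (-0.09) and DNAJA1 at 0.11 ± 0.04 (0.03). Others were CDKN2D, an inhibitor of cyclin-dependent kinases, at 0.14 ± 0.05 (0.01), CENPF, a kinetochore protein, at -0.30 ± 0.12 (-0.17), FASN, fatty acid synthase, at -0.14 ± 0.04 (-0.05), PSMB9, an immunoproteasome subunit, at 0.12 ± 0.04 (0.10) and HIF1A, the oxygen-sensing factor, at 0.25 ± 0.08 (0.08). Most of these differences were smaller in size without the wide arrays. For ATF4 and HSPE1 the sign followed the dye on every array, below 0 on forward and above 0 on sign-turned swapped arrays. Of the p53 list, 10% were higher and 0% lower at an unadjusted p under 0.05, against 3.01% and 2.73% of all features. Without the wide arrays both shares were 3.33%, against 2.72% and 4.64%, and 80% had a difference above 0, against 51.7%. Its replicates did not overlap for 16.7% in the higher direction and 3.33% in the lower, against 8% and 5.12%.

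Markers of other cell types gave no difference past adjustment. At an unadjusted p under 0.05, 3.01% of all features were higher and 2.73% lower. Of 29 fibroblast and mesenchymal markers, 1 was higher (3.45%) and 0 lower at that level, with a list median of -0.001. Of 24 epithelial and trophoblast markers, 3 were higher (12.5%) and 0 lower, with a median of 0.030, and on single arrays their medians overlapped between the times. Without the wide arrays 16.7% were higher and 0% lower, against 2.72% and 4.64% of all features. Replicates did not overlap for 29.2% in the higher direction and 0% in the lower, against 8% and 5.12%. For the immediate early list the shares in the higher direction were close to these, 17.1% and 29.3%. ESRP1, an epithelial splicing factor, had 0.15, -0.01 and 0.15 at 3 h and -0.05, -0.18 and -0.12 at 0 h, with a difference of 0.22 ± 0.06 that was 0.09 without the wide arrays. ELF3, an epithelial ETS factor, had 0.14 ± 0.05 and 0.13 without the wide arrays. Of 24 blood and immune markers, 1 was higher (4.17%) and 0 lower, with a median of 0.019.

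The size of the effect was also compared between the times for features chosen on their mean effect over both, which need not differ from 0 at each time. On that mean, limma called 2423 features higher in the knockdown (8%) and 2298 lower (7.58%) past an adjusted p of 0.05, a choice that does not use the difference itself, although both rest on the same estimate of the spread. Of the higher features, 1740 (71.8%) had a larger effect at 3 h, and 61.4% without the wide arrays. Of the lower ones, 51.4% had a larger effect at 3 h and 43.7% without the wide arrays. Over all features the shares were 56.8% and 54.0%. The median effect of the higher features was 0.156, 0.124 and 0.149 at 3 h and 0.100, 0.123 and 0.115 at 0 h, so every 3 h replicate was above every 0 h replicate, although medians on single arrays overlapped (0.111 to 0.189 at 3 h and 0.098 to 0.138 at 0 h). That of the lower features was -0.161, -0.127 and -0.132 at 3 h and -0.118, -0.164 and -0.123 at 0 h, and the groups overlapped. The largest median of the higher features at 3 h came from replicate 1, which holds the widest array. The 95% interval of the difference lay within 1.5-fold for 99.4% of the higher and 98.5% of the lower features. A choice by adjusted p favours features with a small spread, so narrow intervals follow in part from the choice.

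A last group had effects of opposite sign at the 2 times. All 3 replicates were above 0 at 3 h and below 0 at 0 h for 332 features (1.1%), and the reverse held for 258 (0.851%). Besides UBE2E1, the largest differences among named genes of the first kind were those of MED28, a Mediator subunit, CNTN5, a neural adhesion molecule, HHIPL1 and ORC2, of the origin recognition complex. MED28 had 0.05, 0.03 and 0.08 at 3 h and -0.01, -2.61 and -0.03 at 0 h, so its difference of 0.94 ± 0.68 rested on 0 h replicate 2, and it was 0.06 without the wide arrays. CNTN5 had 1.77, 0.00 and 0.05 at 3 h, and its difference of 0.64 ± 0.46 was 0.04 without the wide arrays. HHIPL1 had 0.33 ± 0.08 (0.27 without the wide arrays), carried by 1 of its 3 probes at 0.92 against 0.04 and 0.03 for the others, and ORC2 had 0.27 ± 0.07 (0.22). On single arrays the sign of HHIPL1 followed the dye, with every forward array below 0 and every sign-turned swapped array above 0, at both times. MED28 did the same apart from the swapped array of 0 h replicate 2 (-5.14). CNTN5 did so apart from the forward array of 3 h replicate 1 (3.51).

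Of the second kind, IQGAP2, a scaffold protein of the cytoskeleton, had -0.54, -0.29 and -0.01 at 3 h and 0.23, 0.09 and 0.20 at 0 h, a difference of -0.45 ± 0.13 that was -0.32 ± 0.08 without the wide arrays. RPL38, a ribosomal protein, TPSG1, a tryptase, and HCN2, an ion channel, had differences of -0.56, -0.50 and -0.50 with all arrays. Without the wide arrays they were -0.11, -0.10 and -0.13. On single arrays the sign of these genes followed the dye and not the time. Every forward array lay below 0 and every sign-turned swapped array above 0, at both times. Their opposite signs between the times thus appear only in the replicate averages. ILDR1 had -1.13, -0.37 and -0.07 at 3 h and 0.04, 0.11 and 0.01 at 0 h, a difference of -0.57 ± 0.25 and of -0.23 without the wide arrays. Its sign also followed the dye, apart from the swapped array of 3 h replicate 2 (-0.31). In this group all 5 members had their lowest value in 3 h replicate 1, which holds the widest array.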

How the data were processed

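RNA of NT2/D1 cells was compared on 12 Agilent 2-colour arrays. The deposited values have no unit in the labels and are entered as a score. Their range shows Cy5/Cy3 ratios in signed form, where a ratio below 1 is given as minus its inverse. The authors used limma, per the submitters' processing notes, but the steps are not given in the sources used here. Intensities were not used here, so dim probes stayed in. Precision is limited by the number of arrays.

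Ratios were converted to log2, swapped arrays were sign-turned from the dyes in the labels, and DNAJC2 had the same sign on all 12 arrays afterwards. After 78 control features were left out, 41000 probes remained, of which 29341 had 1 symbol, 33 several and 11626 none. Symbols came from the platform annotation, updated through a RefSeq table of GRCh38.p14. Probes of a gene were averaged, and so were the 2 arrays of a replicate. limma 3.58.1 in R 4.3.3 (lmFit, eBayes) fitted both times together, with 4 residual degrees of freedom and Benjamini-Hochberg adjustment over 30305 features. SEs are moderated.

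Named genes were DNAJC2, the 10 smallest p in each direction, the 5 in each direction without wide arrays and with opposite signs, the 2 smallest p of each of 24 lists, and all early targets of retinoic acid. Others were chosen after their values were seen. The members and lists were chosen with earlier results of these data known. The labels call the replicates biological, taken on different days. The fit was tested on simulated data. Deviations of replicates with the same number correlated at 0.02, 0.00 and -0.30 across features, so the numbers were not taken to pair the samples.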

Additional observations from a re-analysis of the deposited data

Results flagged for a closer look

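Between its 1st and 99th percentiles, the log2 ratio spanned 3.04 on the forward array of 3 h replicate 1 and 1.70 on the swapped array of 0 h replicate 2, each far from the other 5 arrays of its time by Dixon's ratio (0.846 and 0.751 against a critical value of 0.625). Chance gives a ratio above that critical value in about 1 in 20 groups, and both ratios lay well above it.

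The knockdown effect had one sign in all 3 replicates at 3 h and the opposite sign in all 3 at 0 h for 19 named genes. limma tested each difference, and 0 of the 19 passed adjustment. The difference was 0.86 for UBE2E1, 0.18 for GCOM1, 0.19 for CCNC, 0.18 for LOC100506271, 0.94 for MED28, 0.64 for CNTN5, 0.33 for HHIPL1, 0.27 for ORC2, 0.11 for HOXB13, 0.11 for KLF4 and 0.12 for PSMB9. It was -0.15 for AAK1, -0.15 for ZNF205, -0.57 for ILDR1, -0.56 for RPL38, -0.50 for TPSG1, -0.50 for HCN2, -0.45 for IQGAP2 and -0.064 for MEIS2. Without the wide arrays the differences of MED28 and CNTN5 were 0.06 and 0.04, and those of UBE2E1 and IQGAP2 were 0.74 and -0.32. On single arrays the sign of HHIPL1, RPL38, TPSG1 and HCN2 followed the dye at both times. That of MED28, CNTN5 and ILDR1 did so apart from a single array each.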

How the results depend on the processing

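The 37 named features compared here were picked by their values on these same arrays, apart from DNAJC2. A kept direction was thus largely fixed by that choice. Of these 37, the direction held for 36 or 37 in all 21 alternatives (35 of 35 where features with ratios over 50-fold were left out), and DNAJC2 was the exception. Its difference was 0.0374 without wide arrays with arrays independent, 0.0358 with a random replicate block, 0.0367 with a dye coefficient per time, 0.0365 with array weights, 0.0495 with quantile normalization, 0.20 on swapped arrays, 0.0712 without 3 h replicate 1, 0.0171 where a wide array was replaced by its partner and 0.11 without the widest array. The last 2 and the dye coefficient per time were chosen after seeing the data. Without single replicates it ranged from -0.52 to 0.07. The count past an adjusted p of 0.05 was 1 without wide arrays, with arrays independent or with a random replicate block, and 1 on forward arrays, where it was the unnamed probe A_32_P227265 with a lower effect at 3 h. It was 0 in the other settings. The count at an unadjusted p under 0.05 was 3203 with array weights and 973 on forward arrays, and without single replicates it ranged from 928 to 3754. With the replicate number as a block it was 1286, with 0 features past adjustment. The mean effect called 7143 features without wide arrays with arrays independent, 7212 without the widest array, 8993 on swapped arrays, 1132 with the replicate block and, without single replicates, 2106 to 4934. Features whose replicates did not overlap numbered 6401 to 9818 without single replicates, by fewer values to separate. Settings on single arrays give no such count. The cause of the other changes was not tested. Ratios without signal values leave dim probes in, so the depth behind a value is unknown.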
